A study of Mus musculus with 8 samples.

Results

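Fatty acid oxidation and ketogenesis genes are described here in the intestine of newborn mice with and without claudin-7, a protein of epithelial junctions. The 31 genes were chosen by name, as every non-control probe of the arrays that carries one of those gene names. All 31 were measured, among 20002 genes tested, and their 41 probes were well above background on all 8 arrays. The arrays held total RNA, in 1 colour (Cy3), from intestinal fragments of mouse pups of the 129SV strain, 3 days old. The 4 groups were claudin-7 knockout (KO) small intestine, wild-type (WT) small intestine, KO large intestine and WT large intestine, with 2 arrays in each, numbered 2 and 3. No pup was treated. The knockout was made by gene targeting, and the sources used here give neither the targeted region, nor the place along the gut where a fragment was cut, nor which samples came from the same pup. Nothing in the labels states that the samples of a group came from separate animals, so the p-values measure the spread between these samples, which may be technical.

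Fatty acids are joined to coenzyme A by acyl-CoA synthetases, carried into mitochondria by the carnitine shuttle and shortened by a repeated cycle of dehydrogenation, hydration, a second dehydrogenation and thiolysis. The electrons pass through the electron transfer flavoprotein to the respiratory chain, and the acetyl-CoA can be burned or turned into ketone bodies. The nuclear receptor PPAR alpha (Ppara) drives many of these genes when fat is the fuel. Suckling pups live on milk fat, and the small intestinal epithelium of suckling rats is known to oxidise fatty acids and to make ketone bodies.

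A value below is a log2 signal unless said otherwise. It is log2 of the probe's processed signal minus log2 of the 75th percentile of that array, so 0 is the 75th percentile and values of different probes are not compared. Fold changes come from 1 limma fit over the 8 arrays with 1 mean per group, their errors are standard errors (SE), and a gene passed with a p under 0.05 after Benjamini-Hochberg adjustment over all 20002 genes. The targeted gene, Cldn7, had 2.21 and 0.94 in KO small intestine and 2.08 and 2.16 in KO large intestine, against 5.89 and 5.93 in WT small intestine and 5.70 and 5.56 in WT large intestine, so it was lower on all 4 KO arrays, though the sources used here do not place its probe inside or outside the deleted region. Some arrays stood apart in other tissues' markers or in Xist, which is not a tissue marker. Alb, a hepatocyte gene, was at 5.23 on KO large intestine array 2 and at most at -4.53 on the other 7 arrays. Amy2a5, a pancreatic gene, was at 2.05 on KO large intestine array 3 and at 2.30 on WT large intestine array 2, against at most -3.86 on the other 6. Xist was at -2.42 and -2.43 on the KO arrays numbered 3 and at most at -6.25 on the others.

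**Figure D1:**
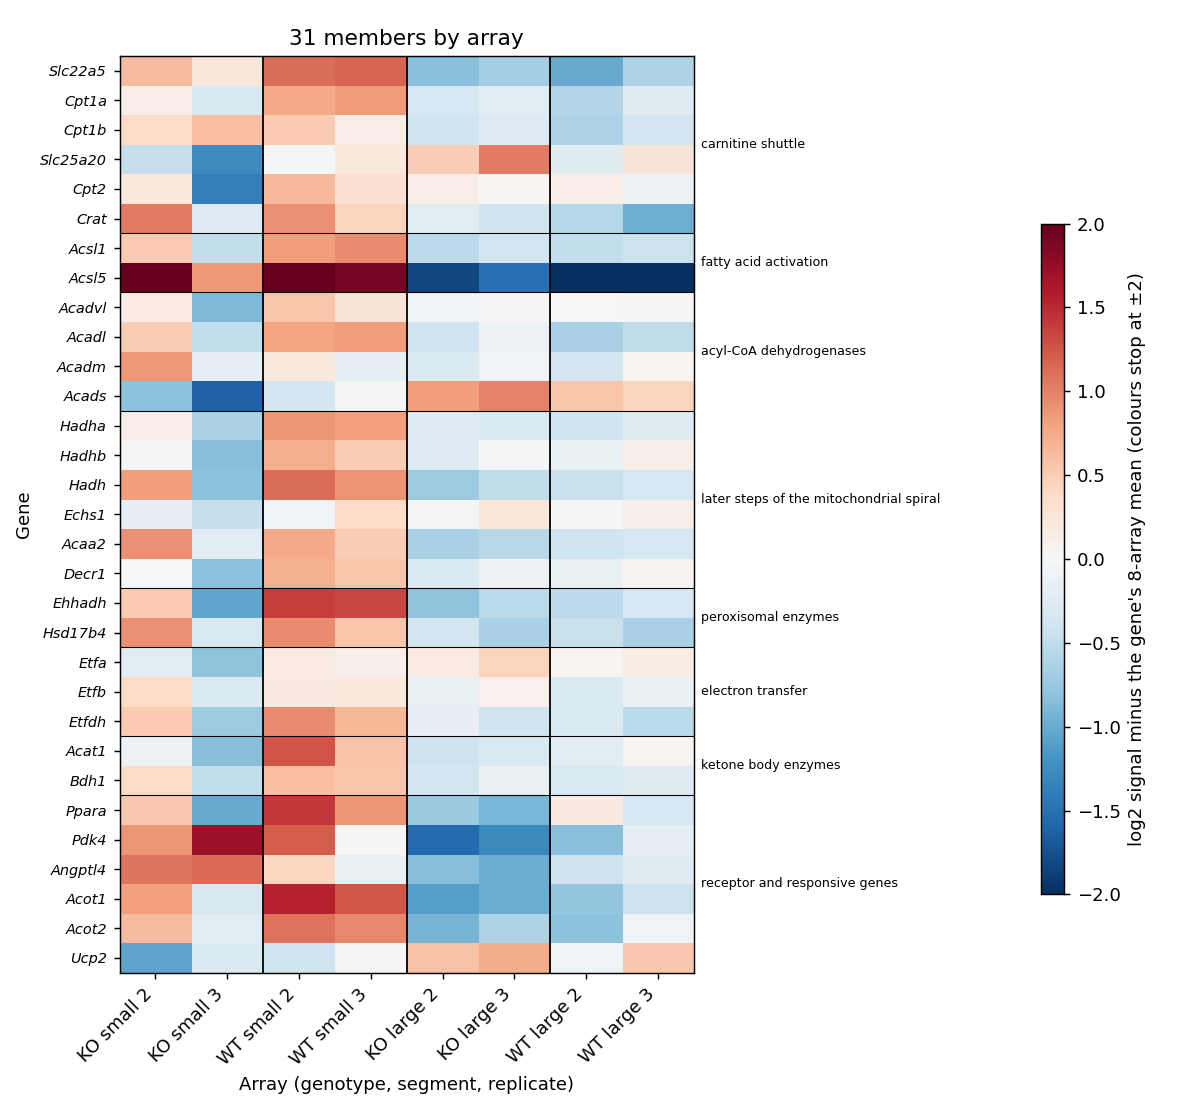
Heat map of the 31 genes (rows, by role) on the 8 arrays (columns: KO then WT small intestine, KO then WT large intestine). Colour is the log2 signal minus that gene's mean over the 8 arrays, red for higher and blue for lower, and stops at 2 either way. KO small intestine array 3 is paler or bluer than array 2 in 27 of 31 rows, and the rows are mostly red in WT small intestine.

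In the small intestine, the genes of fatty acid oxidation lay mostly lower in KO than in WT, and 1 of the 31 passed the test. The log2 fold change was below 0 for 27 of 31 members, against 57.2% of all genes tested, and its median was -0.81, against -0.10 over all genes. Acat1 fell, and no member rose, where 3.55% of all genes fell and 6.47% rose, or 10% in either direction. At an unadjusted p under 0.05 the count was 14 members lower and 1 higher, against 14.3% and 17.2% of all genes. Both KO arrays lay below both WT arrays for 21 members, against 32.7% of all genes, and above both for 1 member, against 26.6%.

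Ketone body enzymes held the member that passed. Acat1 encodes the mitochondrial acetyl-CoA acetyltransferase, which joins acetyl-CoA units at the entry to ketone body synthesis and splits them again when ketone bodies are used. Its probe (NM_144784) lies at chr9:53389868-53389927 in mm9, the build named in the array files, which do not say whether it lies in a coding exon or a UTR. Acat1 had 3.62 and 2.89 in KO small intestine, against 4.99 and 4.31 in WT small intestine. The groups did not overlap, and array 2 was the higher one in both. The log2 fold change was -1.40 ± 0.33 (SE, 2.63-fold lower, adjusted p = 0.0475 by limma). Bdh1, the dehydrogenase that interconverts the ketone bodies acetoacetate and hydroxybutyrate, differed by -0.63 ± 0.30 and did not pass (adjusted p = 0.201 by limma).

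Hadha and Hadhb encode the alpha and beta subunits of the mitochondrial trifunctional protein, which carries out the last steps of the cycle on long chains. Hadha had 1.37 and 0.62 in KO small intestine, against 2.14 and 2.06 in WT small intestine. Its log2 fold change of -1.10 ± 0.27 just missed the threshold (adjusted p = 0.0504 by limma). Hadhb had 4.99 and 4.17 in KO small intestine, against 5.75 and 5.53 in WT small intestine, a log2 fold change of -1.06 ± 0.30 (adjusted p = 0.0669 by limma). In both genes the KO arrays lay below the WT arrays and KO array 3 was the lowest of the 8. The 2 genes start head to head on chromosome 5. The 272 bases between their starts, chr5:30154981-30155252 in GRCm38.p6, plus strand, are shown from RefSeq because 1 stretch serves as the upstream region of both subunits, with both copies of the GC box letters GGGCGG in capitals.
Hadha-Hadhb: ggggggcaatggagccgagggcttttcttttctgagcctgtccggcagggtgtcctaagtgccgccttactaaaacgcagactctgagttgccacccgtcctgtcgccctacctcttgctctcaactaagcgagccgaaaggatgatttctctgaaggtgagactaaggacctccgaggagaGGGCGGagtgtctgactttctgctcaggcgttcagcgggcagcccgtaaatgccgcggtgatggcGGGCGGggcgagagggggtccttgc

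The other later steps of the mitochondrial cycle followed the same order without passing. Decr1, the dienoyl-CoA reductase needed for unsaturated fatty acids, had 4.43 and 3.61 in KO small intestine, against 5.13 and 4.98 in WT small intestine. Its log2 fold change was -1.04 ± 0.29 (adjusted p = 0.0661 by limma). Across the 6 genes of this group (Hadha, Hadhb, Hadh, Echs1, Acaa2 and Decr1) the log2 fold changes ran from -1.10 to -0.28, and the arrays overlapped only for Acaa2, the mitochondrial thiolase.

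In the carnitine shuttle no member passed. Cpt1a, the carnitine palmitoyltransferase of the outer mitochondrial membrane and the rate-limiting step of the pathway in liver, had 4.37 and 3.91 in KO small intestine, against 4.99 and 5.09 in WT small intestine. The log2 fold change was -0.90 ± 0.23 (adjusted p = 0.0561 by limma). Slc22a5, the plasma membrane carnitine transporter, had 0.94 and 0.55 in KO small intestine, against 1.42 and 1.48 in WT small intestine (-0.71 ± 0.23, adjusted p = 0.0902 by limma). Slc25a20, the carrier that exchanges acylcarnitine for carnitine across the inner membrane, had 1.69 and 0.88 in KO small intestine, against 2.12 and 2.36 in WT small intestine. The arrays did not overlap in these 3 genes or in Cpt2, and they overlapped for Cpt1b, the muscle form of the entry enzyme, and for Crat, the carnitine acetyltransferase. Cpt2, which returns the acyl group to coenzyme A, differed by -1.06 ± 0.48.

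Among the acyl-CoA dehydrogenases, which start each round, the short-chain enzyme Acads had 0.16 and -0.65 in KO small intestine, against 0.61 and 0.94 in WT small intestine. Its log2 fold change was -1.02 ± 0.30 (adjusted p = 0.0699 by limma). The very-long-chain and long-chain enzymes Acadvl and Acadl differed by -0.77 ± 0.34 and -0.81 ± 0.33, and the medium-chain enzyme Acadm by 0.35 ± 0.37 with overlapping arrays. Fatty acid activation gave -0.87 ± 0.33 for the synthetase Acsl1 and -0.42 ± 0.48 for the synthetase Acsl5, whose arrays overlapped. The electron transfer genes Etfa, Etfb and Etfdh ran from -0.90 to -0.13. Ehhadh, the peroxisomal bifunctional enzyme, had 2.32 and 0.74 in KO small intestine, against 3.17 and 3.13 in WT small intestine (-1.62 ± 0.47, adjusted p = 0.0699 by limma). Hsd17b4, the other peroxisomal enzyme of the set, differed by -0.44 ± 0.40 and overlapped.

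The receptor and the genes that respond to it did not move as 1 group in the small intestine. Ppara had 1.49 and -0.07 in KO small intestine, against 2.35 and 1.83 in WT small intestine (-1.38 ± 0.50, adjusted p = 0.115 by limma). Of its 2 other probes, 1 gave -1.74 and 1 gave -0.14. Angptl4, a secreted inhibitor of lipoprotein lipase, ran the other way, with 4.19 and 4.26 in KO small intestine, against 3.55 and 2.97 in WT small intestine. It was the only member whose KO arrays both lay above the WT arrays, and its log2 fold change was 0.97 ± 0.24 (adjusted p = 0.0520 by limma). Pdk4, the kinase that shuts off pyruvate dehydrogenase when fat is burned, had 1.77 and 2.61 in KO small intestine, against 2.10 and 0.90 in WT small intestine, and the groups overlapped. Acot1 and Acot2, the cytosolic and mitochondrial acyl-CoA thioesterases, differed by -1.14 ± 0.37 and -0.82 ± 0.36. These 2 neighbouring genes on chromosome 12 have closely similar coding sequences, so their signals are uncertain, and cross-hybridisation was not tested. Ucp2, an uncoupling protein of the inner membrane, differed by -0.45 ± 0.34.

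**Figure D2:**
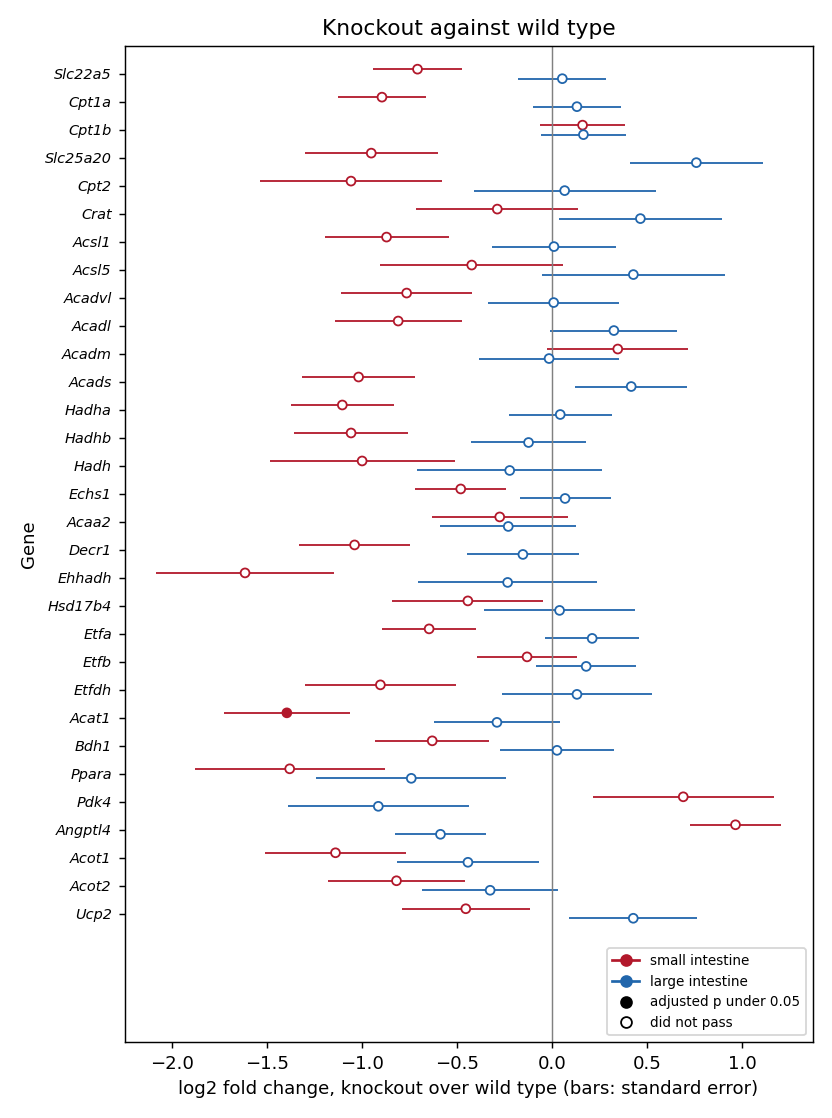
Log2 fold changes of KO over WT with their standard errors for the 31 genes, in small intestine (red) and large intestine (blue). Filled points passed at an adjusted p under 0.05, which only Acat1 in the small intestine did, and 27 of 31 red points and 12 of 31 blue points lie left of 0.

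**Figure D3:**
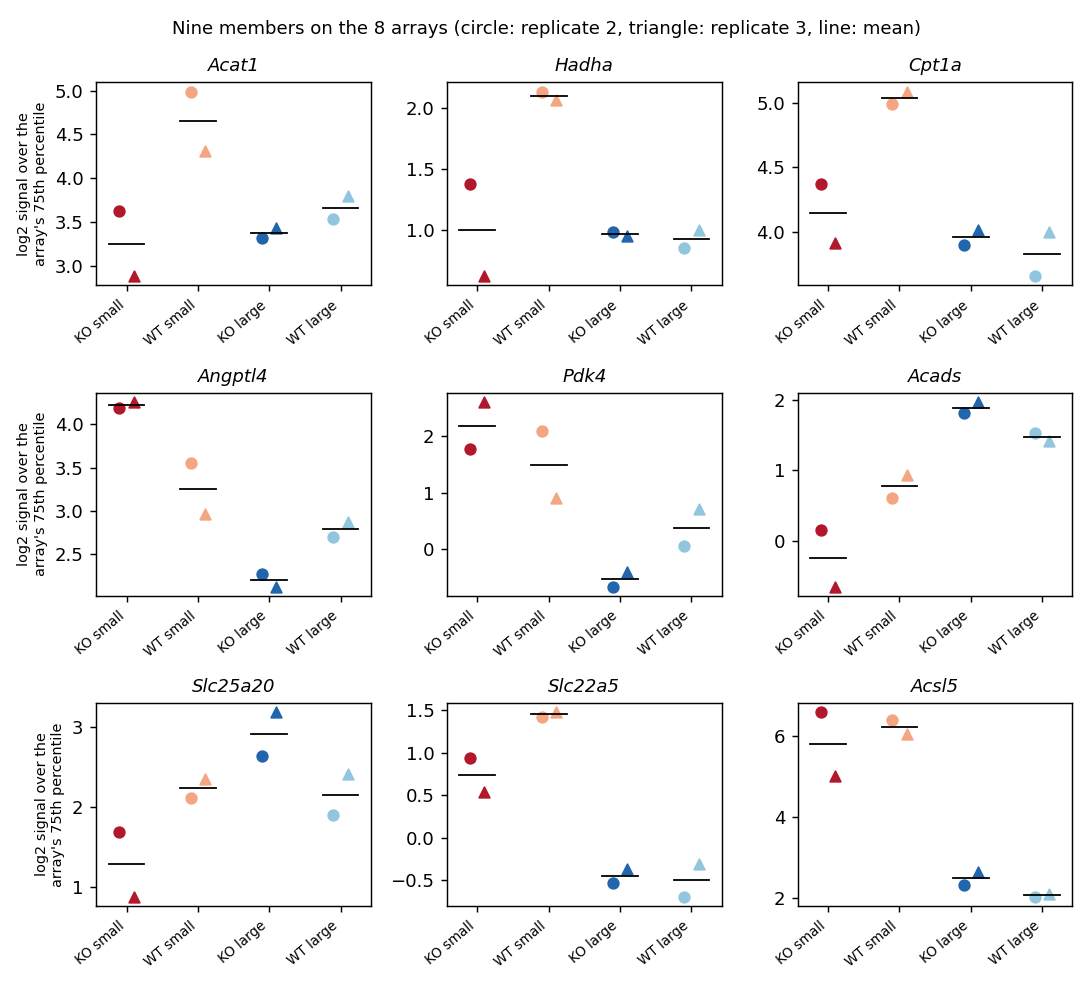
Log2 signal over the array's 75th percentile for 9 of the genes on each of the 8 arrays (circles, replicate 2; triangles, replicate 3; lines, group means of 2 arrays). KO stands left of WT in each segment, and the vertical axes differ between panels and do not start at 0.

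The KO small intestine arrays differed from each other about as much as the groups did. Array 3 was below array 2 for 27 of 31 members, with a median difference of -0.84, against -0.02 over all genes. In WT small intestine the same difference had a median of -0.22 and was below 0 for 22 members, and in the large intestine its median was 0.16 in KO and 0.15 in WT. The KO small intestine arrays also differed in Xist, at -6.25 on array 2 and -2.42 on array 3. What goes with that difference was not tested. The arrays with the same number shared a slide row. Within row 2 the KO minus WT median was -0.39, with 25 of 31 members below 0, and within row 3 it was -1.17, with 27 below 0. With the row as a block 0 members passed. Without KO small intestine array 2, 20 members passed, all of them lower, and the median was -1.24. Without KO small intestine array 3, 0 passed and the median was -0.34, with 22 of 31 below 0. Without WT small intestine array 2 only Angptl4 passed, as higher, and without any 1 of the other 5 arrays 0 passed. An array left alone in its group is assumed to vary like the other groups.

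Markers of cell types also differed between KO and WT small intestine and between its KO arrays. Summed signals of marker lists are given as multiples of the array's 75th percentile signal. The 9 enterocyte markers summed to 424 to 753 in KO small intestine, against 599 to 725 in WT small intestine, and 1 of 9 fell. On KO array 3 all 9 were below KO array 2, with a median difference of -0.75 on the log2 scale. Between KO and WT the median log2 fold change of these 9 was -0.56 in the small intestine and -1.40 in the large intestine. In the large intestine 1 of the 9 fell, and their sums were low, at 20.6 to 40.8 in KO and 39.5 to 44.1 in WT. On each KO large intestine array 1 of the 9 was not well above background. The median of the 31 members in the large intestine was 0.04. The 8 smooth muscle markers summed to 464 to 575 in KO small intestine, against 167 to 304 in WT small intestine, with all 8 log2 fold changes above 0 and 1 that rose. The 7 enteric neuron markers summed to 32.4 to 54.3 in KO small intestine, against 11.2 to 18.6 in WT small intestine, and 5 rose. Of the skeletal muscle markers 6 of 7 were measured and 1 rose, with sums of 10.2 to 18.1 in KO small intestine, against 2.39 to 5.37 in WT small intestine. The adipocyte markers, 6 of 8 measured, summed to 30.1 to 36.2 in KO small intestine, against 91.2 to 96.3 in WT small intestine, and 1 fell. Their log2 fold changes were below 0 for 4 and above 0 for 2, with a median of -0.55. On each array 2 to 4 of the 8 adipocyte markers were not well above background, counting those not measured. Of the 5 brown adipocyte markers 4 were measured and 1 rose in KO small intestine. Their log2 fold changes were above 0 for 3 and below 0 for 1, with a median of 1.06. All 4 measured T cell markers fell, 3 of 5 macrophage markers rose, and the general epithelial markers gave 1 that fell and 1 that rose of 9. The hepatocyte markers summed to 35.4 to 37.9 in KO small intestine, against 75.7 to 90.3 in WT small intestine. The pancreatic markers summed to 0.683 to 1.14 in KO small intestine, against 14.9 to 19.3 in WT small intestine. Yet 5 of the 8 pancreatic log2 fold changes were above 0, with a median of 0.13 and a range of -6.09 to 0.93. None of either list passed. The part of these shifts in the lower signals of the oxidation genes was not tested. In tissue RNA, fewer cells of a type and less RNA per cell cannot be told apart.

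**Figure D4:**
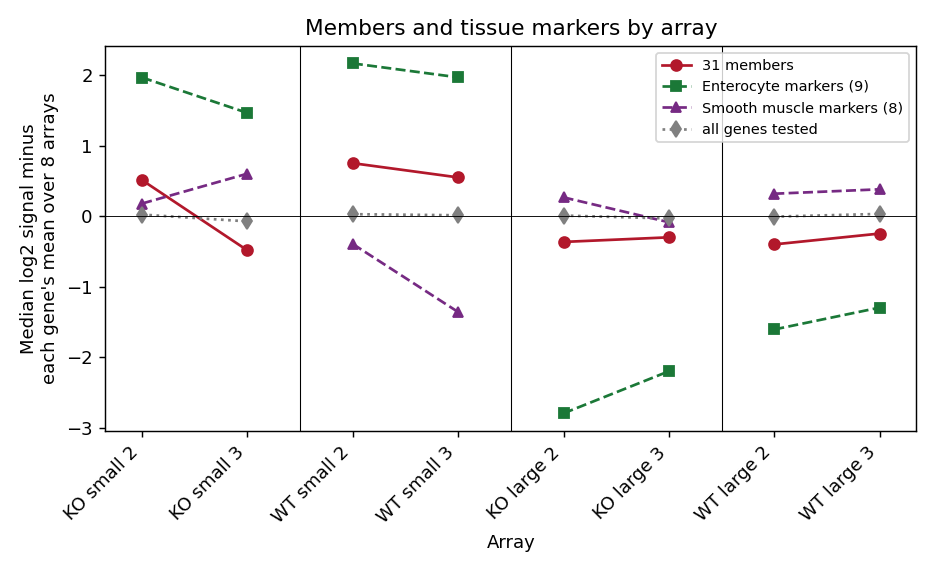
Median deviation of the log2 signal from the 8-array mean of its gene, for the 31 genes, 9 enterocyte markers, 8 smooth muscle markers and all genes tested, on each array. The members sit at 0.51 and -0.49 on the KO small intestine arrays, against 0.75 and 0.55 on the WT small intestine arrays, and between -0.40 and -0.25 on all 4 large intestine arrays.

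Upstream sequences were searched because PPAR alpha is known to bind response elements near many genes of the pathway. RefSeq upstream windows (250 bases before the start, GRCm38.p6, both strands) were found for 24 of the 31 members and for 27025 genes in all. The letters of the full PPAR response element, 2 copies of AGGTCA in a row with any 1 base between them, occurred in 0 of the 24 windows and in 0.0407% of all windows. The half-site AGGTCA alone, which the full element contains, occurred in 4 of 24 (Acadm, Acadvl, Cpt1a and Echs1), a share of 16.7%, against 15.8% of all windows. GGGCGG occurred in 62.5% of the members' windows, against 35.4% of all, and CCAAT in 45.8%, against 37.5%. A match is a run of letters, not a bound site, and nothing follows from a missing one. The Cpt1a window, chr19:3323051-3323300 on the plus strand, is shown for the entry enzyme, with its half-site (read on the other strand) in capitals.
Cpt1a: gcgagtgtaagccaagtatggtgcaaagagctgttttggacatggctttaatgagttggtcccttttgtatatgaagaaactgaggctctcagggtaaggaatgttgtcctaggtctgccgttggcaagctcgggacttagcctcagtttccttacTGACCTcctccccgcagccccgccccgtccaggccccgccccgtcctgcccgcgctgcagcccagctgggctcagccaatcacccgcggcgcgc

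In the large intestine no member passed between KO and WT, where 0.31% of all genes did. By limma 1 member had an unadjusted p under 0.05, against 13.2% of all genes, and under the 11 other processing settings and the 8 fits that each left out 1 array the count that passed was also 0. The median log2 fold change was 0.04, and 12 of 31 were below 0, against 50% of all genes. This direction depends on the scaling, since 21 were below 0 with quantile normalisation and 22 in the deposited value table, with medians of -0.12 and -0.14. Single members ran from -0.91 to 0.76. By role, all 6 carnitine shuttle genes were above 0 (0.05 to 0.76), 4 of 6 later steps of the mitochondrial cycle were below 0, and 5 of 6 receptor and responsive genes were below 0. Both KO arrays lay below both WT arrays for 8 members, against 27.6% of all genes, and above them for 7, against 27.7%.

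Angptl4 was the member with the small unadjusted p. It had 2.27 and 2.13 in KO large intestine, against 2.70 and 2.88 in WT large intestine (-0.59 ± 0.24, adjusted p = 0.370 by limma). Pdk4 had -0.67 and -0.41 in KO large intestine, against 0.04 and 0.71 in WT large intestine, which is the lowest end of the range at -0.91 ± 0.48. Both fuel-switch genes were thus below WT in the large intestine with arrays that did not overlap, while in the small intestine their KO means were above WT. Slc25a20 stood at the other end, with 2.65 and 3.19 in KO large intestine, against 1.91 and 2.41 in WT large intestine (0.76 ± 0.35). Ppara had 0.21 and 0.03 in KO large intestine, against 1.12 and 0.60 in WT large intestine (-0.74 ± 0.50), but 1 of its other probes gave 0.47. Acads had 1.81 and 1.97 in KO large intestine, against 1.53 and 1.42 in WT large intestine (0.42 ± 0.30). Without KO large intestine array 2, which carried the hepatocyte markers, the median was 0.05, with 12 of 31 below 0. Without KO large intestine array 3 it was -0.03, with 17 below 0.

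Taken over both segments in an additive fit of genotype and segment, no member passed, where 0.63% of all genes did. By limma 3 members had an unadjusted p under 0.05, against 15.2% of all genes, and the count that passed was 0 under the 10 other settings and the 8 fits that each left out 1 array. Those 3 were Ppara (-1.06 ± 0.36), Acat1 (-0.84 ± 0.30) and Acot1 (-0.79 ± 0.29). The median was -0.30, with 25 of 31 below 0, against 51.7% of all genes. The fit counts the segments as separate samples, and whether they came from the same pups is not given.

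The difference of the KO effect between segments, large minus small, was tested directly. No member passed, where 0.14% of all genes did, and by limma 7 had an unadjusted p under 0.05, against 25.9% of all genes. The difference was below 0 for 3 of 31 members, against 42.9% of all genes, and its median was 0.78, against 0.14 over all genes. The largest differences were 1.71 ± 0.49 for Slc25a20 (adjusted p = 0.109 by limma), -1.61 ± 0.67 for Pdk4 (adjusted p = 0.193 by limma) and -1.55 ± 0.34 for Angptl4 (adjusted p = 0.0994 by limma). Acads differed by 1.44 ± 0.42 (adjusted p = 0.111 by limma). Without KO small intestine array 2, 7 members passed, all above 0 (Cpt2, Acsl1, Acadl, Acads, Hadha, Hadh and Ehhadh), and without KO small intestine array 3 the median was 0.33 and 0 passed.

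Between segments of WT pups most of the oxidation genes had lower signals in the large intestine. Of the 31 members 10 fell and 0 rose, where 9.97% of all genes fell and 9.99% rose. The log2 fold change of large over small was below 0 for 29 members, against 49.9% of all genes, with a median of -1.0, against 0.0017 over all genes. Both large intestine arrays lay below both small intestine arrays for 25 members, against 35% of all genes. In KO pups 4 members fell and 3 rose, where 7.64% and 8.39% of all genes did. In the WT comparison all 6 carnitine shuttle genes, all 6 later steps of the mitochondrial cycle and all 3 electron transfer genes were below 0. In the KO comparison 21 members were below 0, against 51.6% of all genes, and the median was -0.26. Both large intestine arrays lay below both small intestine arrays for 9 members and above them for 5, against 30.7% of all genes each way.

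Acsl5 had the largest segment difference of the 31 genes in both genotypes, and with Slc22a5 it was 1 of the 2 that passed in both. Acsl5, an acyl-CoA synthetase abundant in small intestinal epithelium, had 2.03 and 2.09 in WT large intestine, against 6.39 and 6.05 in WT small intestine. It fell by 4.16 ± 0.48 on the log2 scale, 17.9-fold lower (adjusted p = 0.00306 by limma). In KO pups Acsl5 had 2.33 and 2.65 in the large intestine, against 6.59 and 5.01 in the small intestine, and fell by 3.31 ± 0.48, 9.91-fold lower (adjusted p = 0.00669 by limma). Slc22a5 had -0.69 and -0.31 in WT large intestine, against 1.42 and 1.48 in WT small intestine (-1.95 ± 0.23, adjusted p = 0.00331 by limma). In KO pups it had -0.53 and -0.36 in the large intestine, against 0.94 and 0.55 in the small intestine (-1.19 ± 0.23, adjusted p = 0.0187 by limma). Their upstream windows, RefSeq, GRCm38.p6, are shown as the pair with that pattern. Capitals mark CCAAT in Acsl5 (chr19:55253119-55253368, plus strand) and GGGCGG on either strand in Slc22a5 (chr11:53891704-53891953, minus strand).
Acsl5: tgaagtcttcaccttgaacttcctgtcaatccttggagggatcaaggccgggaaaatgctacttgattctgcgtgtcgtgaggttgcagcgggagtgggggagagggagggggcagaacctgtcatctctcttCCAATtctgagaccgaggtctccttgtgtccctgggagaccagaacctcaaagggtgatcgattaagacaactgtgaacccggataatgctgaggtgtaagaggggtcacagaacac
Slc22a5: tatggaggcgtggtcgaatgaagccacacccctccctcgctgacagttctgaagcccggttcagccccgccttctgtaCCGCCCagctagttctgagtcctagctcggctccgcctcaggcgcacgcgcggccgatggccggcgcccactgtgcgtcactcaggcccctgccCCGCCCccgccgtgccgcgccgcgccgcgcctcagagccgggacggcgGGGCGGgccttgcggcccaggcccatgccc

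The other 8 members that fell in WT large intestine came from most roles. Acot1 had 2.91 and 3.26 in WT large intestine, against 5.21 and 4.93 in WT small intestine (-1.99 ± 0.37, adjusted p = 0.0151 by limma). Acot2 had -1.50 and -0.77 in WT large intestine, against 0.40 and 0.28 in WT small intestine (-1.47 ± 0.36, adjusted p = 0.0339 by limma), with the same reserve about similar sequences. Ehhadh had 1.27 and 1.44 in WT large intestine, against 3.17 and 3.13 in WT small intestine (-1.79 ± 0.47, adjusted p = 0.0416 by limma). In none of these 3 genes did the groups overlap. Acadl had 2.87 and 3.02 in WT large intestine, against 4.32 and 4.37 in WT small intestine (-1.39 ± 0.33, adjusted p = 0.0322 by limma). Acsl1 had 2.71 and 2.77 in WT large intestine, against 4.02 and 4.14 in WT small intestine (-1.35 ± 0.33, adjusted p = 0.0334 by limma).

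The entry enzymes and the trifunctional protein complete the list. Cpt1a had 3.66 and 4.00 in WT large intestine, against 4.99 and 5.09 in WT small intestine (-1.21 ± 0.23, adjusted p = 0.0165 by limma). Hadha had 0.85 and 1.0 in WT large intestine, against 2.14 and 2.06 in WT small intestine (-1.18 ± 0.27, adjusted p = 0.0286 by limma). Its partner Hadhb differed by -0.63 ± 0.30 and did not pass (adjusted p = 0.180 by limma). Cpt1b had -4.79 and -4.54 in WT large intestine, against -3.65 and -4.04 in WT small intestine (-0.82 ± 0.22, adjusted p = 0.0452 by limma), a call lost in 13 of 19 alternatives, among them normexp background correction, the deposited value table and averaged probes. In KO pups Cpt1a and Hadha differed by -0.19 ± 0.23 and -0.03 ± 0.27 between the segments, and Cpt1b by -0.82 ± 0.22.

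In KO pups the members that passed included genes with no call in WT. Angptl4 had 2.27 and 2.13 in KO large intestine, against 4.19 and 4.26 in KO small intestine, and fell by 2.02 ± 0.24 on the log2 scale (adjusted p = 0.00320 by limma). Pdk4 had -0.67 and -0.41 in KO large intestine, against 1.77 and 2.61 in KO small intestine, and fell by 2.73 ± 0.48 (adjusted p = 0.0126 by limma). Their WT differences were -0.47 ± 0.24 and -1.12 ± 0.48. Acads, Slc25a20 and Ucp2 rose. Acads had 1.81 and 1.97 in KO large intestine, against 0.16 and -0.65 in KO small intestine (2.13 ± 0.30, adjusted p = 0.00555 by limma). Slc25a20 had 2.65 and 3.19 in KO large intestine, against 1.69 and 0.88 in KO small intestine (1.63 ± 0.35, adjusted p = 0.0256 by limma). Ucp2 had 1.83 and 1.99 in KO large intestine, against 0.19 and 0.96 in KO small intestine (1.33 ± 0.34, adjusted p = 0.0421 by limma). The test of the difference between genotypes is the one given above for the KO effect by segment, and it passed for none of these 5 genes.

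**Figure D5:**
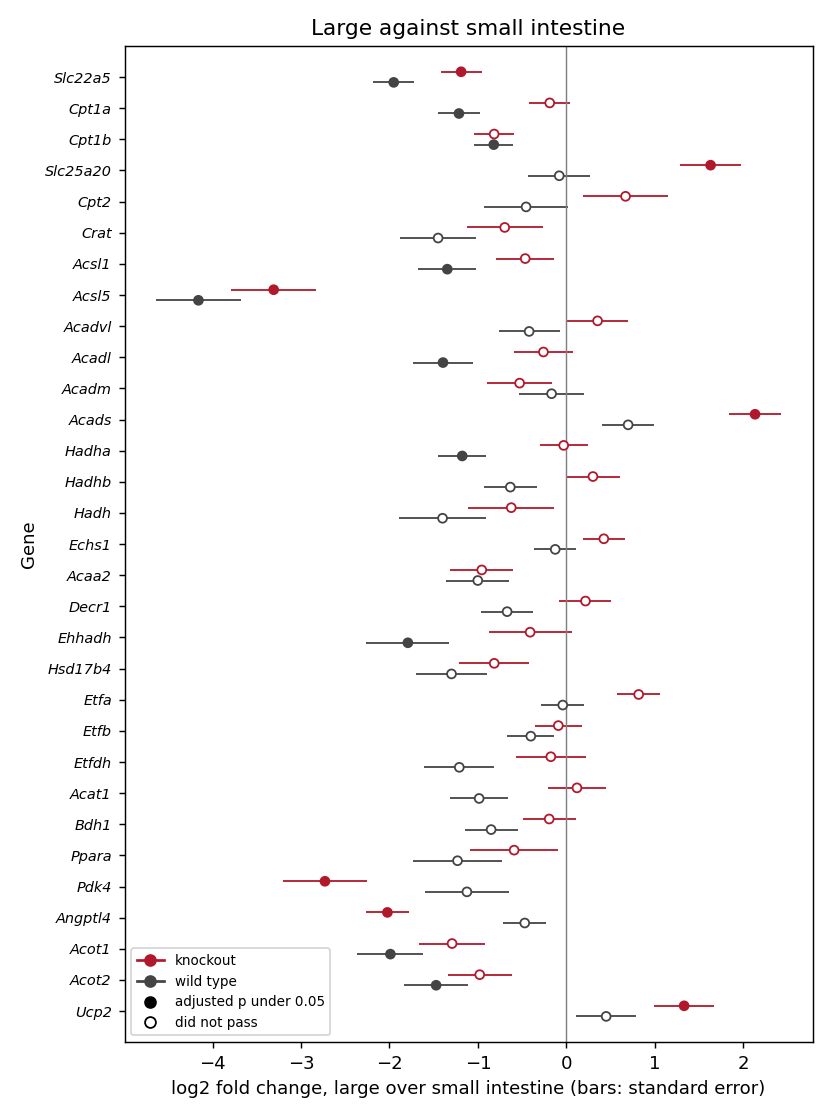
Log2 fold changes of large over small intestine with their standard errors for the 31 genes, in KO (red) and WT (grey) pups. Filled points passed at an adjusted p under 0.05, which 7 red and 10 grey points did, and Acsl5 lies farthest left in both genotypes.

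The segment counts moved when single arrays were left out. The WT count was 18 without either KO small intestine array, 6 without either KO large intestine array, 3 without WT small intestine array 2, and 2 without WT small intestine array 3 or either WT large intestine array. Acsl5 and Slc22a5 passed in WT under all 19 alternatives tried. The KO count was 13 without KO small intestine array 3, 4 without KO large intestine array 2 and 3 without KO large intestine array 3, and Acsl5, Acads and Angptl4 passed there under all 19. Without KO small intestine array 2 the KO median was 0.24, with 11 of 31 below 0. Of the other WT calls, Ehhadh and Acot2 were each lost in 8 of 19 alternatives, Acsl1 in 7, Acadl, Hadha and Acot1 in 4 each and Cpt1a in 3, and of the other KO calls, Ucp2 was lost in 9, Slc22a5 in 4, Slc25a20 in 3 and Pdk4 in 2. With the slide row as a block 10 members passed in WT, of which 7 were among those given above, and the calls of Ehhadh, Acot2 and Cpt1b were lost. In KO the same 7 passed with that block. Within row 2 the median of large over small was -0.78 in KO and -1.23 in WT, and within row 3 it was 0.33 in KO, with 10 of 31 below 0, and -0.80 in WT. The enterocyte markers differed between the segments as well. They summed to 20.6 to 40.8 in KO large intestine, against 424 to 753 in KO small intestine, and 7 of 9 fell. In WT pups they summed to 39.5 to 44.1 in the large intestine, against 599 to 725 in the small intestine, and 8 of 9 fell. For large over small in WT, all 8 smooth muscle markers were above 0 (median 1.25) and 4 rose. All 7 enteric neuron markers were also above 0 (median 0.83) and 1 rose. In KO, 6 of the 8 were below 0 (median -0.31) and 0 passed, and all 7 were below 0 (median -0.80) and 1 fell. Of the 6 measured adipocyte markers 5 were below 0 in each genotype and 2 fell. The hepatocyte markers, 9 of 10 measured, summed to 22.0 to 222 in KO large intestine, against 35.4 to 37.9 in KO small intestine. The pancreatic markers summed to 0.648 to 12.9 in KO large intestine, against 0.683 to 1.14 in KO small intestine. In WT pups they summed to 0.821 to 14.4 in the large intestine, against 14.9 to 19.3 in the small intestine. Gene by gene, large over small was above 0 for 7 of 8 in WT, with a median log2 fold change of 2.17. In KO it was above 0 for all 8, with a median of 2.12, and none passed in either genotype. The part of these markers in the segment differences was not tested.

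Further genes of the pathway were read from lists outside the 31. Of 20 other genes on a list for peroxisomal oxidation 2 fell in KO small intestine and 0 rose, where 3.55% of all genes fell and 6.47% rose. They were Abcd3, a peroxisomal acyl-CoA transporter (-0.96 ± 0.20, adjusted p = 0.0391 by limma), and Pex5, the import receptor for peroxisomal enzymes (-1.0 ± 0.22, adjusted p = 0.0416 by limma). Of this list 18 of 20 log2 fold changes were below 0, against 57.2% of all genes, with a median of -0.58, against -0.10 over all genes. Of 25 other genes of mitochondrial oxidation and fatty acid activation 4 fell and 3 rose. Here 15 of 25 log2 fold changes were below 0, closer to the share of all genes, with a median of -0.37. Eci1, the enoyl-CoA isomerase for unsaturated fatty acids, had 2.74 and 2.60 in KO small intestine, against 4.24 and 4.23 in WT small intestine (-1.56 ± 0.18, adjusted p = 0.0148 by limma). Pccb, a subunit of propionyl-CoA carboxylase, and Slc25a42, the mitochondrial coenzyme A carrier, fell by 1.05 ± 0.21 and 2.03 ± 0.45. The synthetase Acsl4, which prefers arachidonic acid, had 1.68 and 2.39 in KO small intestine, against 0.53 and 0.21 in WT small intestine (1.66 ± 0.28, adjusted p = 0.0288 by limma). Acadsb, a dehydrogenase of branched-chain substrates, rose by 0.76 ± 0.18.

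Among the other ketone body genes 1 of 7 passed in KO small intestine, where 10% of all genes did in either direction. Of the 7 log2 fold changes 3 were below 0 and 4 above, with a median of 0.04. Oxct1, the transferase with which tissues outside the liver use ketone bodies, had 3.39 and 3.87 in KO small intestine, against 2.51 and 2.72 in WT small intestine (1.02 ± 0.23, adjusted p = 0.0444 by limma). In the large intestine, over both segments and in the difference of the KO effect 0 genes of these 3 lists passed. Between segments of WT pups 6 of the 20 genes on the peroxisomal list fell and 0 rose, where 9.97% of all genes fell and 9.99% rose. Of the 25 mitochondrial and activation genes 2 fell and 6 rose, and of the 7 ketone body genes 0 fell and 2 rose. Acot12, a cytosolic acetyl-CoA hydrolase counted on the peroxisomal list, was not well above background in WT large intestine. Its measured values were -7.79 and -7.74 in WT large intestine, against 1.31 and 0.46 in WT small intestine. It was at least 267-fold lower in the large intestine. Oxct1 had 4.90 and 4.93 in WT large intestine, against 2.51 and 2.72 in WT small intestine (2.30 ± 0.23, adjusted p = 0.00189 by limma). In KO pups 2 genes on the peroxisomal list fell and 1 rose, where 7.64% of all genes fell and 8.39% rose. The counts were 0 and 6 among the mitochondrial and activation genes, and 1 and 2 among the ketone body genes.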

How the data were processed

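Labelled total RNA of 8 samples was hybridised to Agilent mouse arrays, and the authors deposited each array's scanner output. The processed signal is an intensity that the scanner software, Feature Extraction 10.7.3.1, had already background-subtracted, per the file headers. The deposited value table also holds intensity values, on a linear scale, whose making is not given in the sources used here beyond R 3.3.0, per the submitters' processing notes. Its columns correlated with the scanner signals at 0.991 or higher across probes, and their medians lay between 159 and 161.

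Each processed signal was put on the log2 scale and the log2 of its array's 75th percentile (2642 to 3572 signal units) was subtracted, over 55681 non-control probes, leaving out flagged outlier spots. A probe was kept where both arrays of some group flagged it as well above background, the brightest kept probe stood for its gene, and 20002 named genes were left. Names came from the files, updated through RefSeq by accession, symbol or synonym. Tests used limma 3.58.1 in R 4.3.3 and were tested on simulated data. The fit had 4 residual degrees of freedom, so precision is limited by how few arrays there were. Of the 8 members with several probes, all probes had 1 sign in KO minus WT in the small intestine and in both segment differences, and in the large intestine Bdh1 and Ppara were mixed.

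The members and lists were chosen with earlier results of these data known. Members that passed, that had the 5 smallest p-values between genotypes in a segment, or that had the 5 largest WT segment differences are given per array, and Hadhb was added beside Hadha after its values were seen. Of the other pathway genes, at most 10 that passed are named per comparison. The alternatives were another background correction, quantile scaling, the deposited table, 2 other filters, flags ignored, averaged probes, another prior, 2 blocks, the compared groups alone and each array left out. Slide column and group cannot be told apart. 1 gene of the pathway lists is not reported here.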

Additional observations from a re-analysis of the deposited data

How the results depend on the processing

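All 12 settings (the one reported and 11 others, or 10 over both segments and for the difference) kept 27 of 31 members below 0 in KO against WT small intestine, and every call in KO large intestine, over both segments and in the difference stayed at 0 members. The small intestine count of 1 became 5 with normexp background correction, 4 with quantile normalisation, 5 in the deposited value table, 4 with probes well above background on all 8 arrays, 2 with averaged probes, 6 with a trended and robust prior, and 0 with no filter on dim probes or with the 2 compared groups alone. The WT segment count of 10 ranged from 6, with no filter, to 15, with the compared groups alone, and the KO segment count of 7 from 4, with the compared groups alone, to 9, with quantile normalisation, the deposited table, the stricter filter or the other prior. Leaving out 1 array gave 0 to 20 members in the small intestine, 0 to 7 for the difference, 2 to 18 for the WT segments and 3 to 13 for the KO segments. Acat1 did not pass in 10 of 19 alternatives, with an adjusted p of 0.0270 to 0.185 by limma. The cause of these shifts was not tested. Replicate numbers do not establish a pairing. Deviations of same-numbered samples correlated at 0.00865 to 0.263 between groups, and with the replicate number as a block 0 members passed in the small intestine and 10 in the WT segments, without Ehhadh, Acot2 and Cpt1b. The number of arrays, 2 per group, limits every test.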

Other observations

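Regulators and PPAR targets outside the 31 genes were read from a list of 33, of which 32 were measured. In KO small intestine 2 fell and 0 rose, where 3.55% of all genes fell and 6.47% rose. Rxra, a partner receptor of the PPARs, had -3.41 and -4.04 in KO small intestine, against -2.51 and -2.33 in WT small intestine (log2 fold change -1.31 ± 0.25, adjusted p = 0.0361 by limma). Pdk3, another pyruvate dehydrogenase kinase, fell by 0.84 ± 0.20 (adjusted p = 0.0468 by limma). In KO large intestine, over both segments and in the difference of the KO effect 0 of the 32 passed, with 1, 1 and 8 at an unadjusted p under 0.05, against 13.2%, 15.2% and 25.9% of all genes. The median log2 fold change was -0.23 in KO small intestine and 0.24 in KO large intestine.

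Between segments of WT pups 9 of the 32 fell in the large intestine and 2 rose, where 9.97% of all genes fell and 9.99% rose. Cd36, a fatty acid transporter, had -0.14 and 0.25 in WT large intestine, against 3.06 and 2.22 in WT small intestine (-2.59 ± 0.37, adjusted p = 0.00620 by limma). Cidec, a lipid droplet protein, had 1.23 and 2.03 in WT large intestine, against 5.42 and 5.08 in WT small intestine (-3.62 ± 0.41, adjusted p = 0.00274 by limma). Pparg, the PPAR of fat cells and colonic epithelium, rose, with 3.44 and 3.65 in WT large intestine, against 2.00 and 1.79 in WT small intestine (1.65 ± 0.20, adjusted p = 0.00347 by limma). In KO pups 6 fell and 4 rose, where 7.64% of all genes fell and 8.39% rose. Cd36 had the smallest p of this list there (-3.51 ± 0.37, adjusted p = 0.00202 by limma), and Ppard rose by 2.06 ± 0.25 (adjusted p = 0.00350 by limma). Fabp1, a fatty acid binding protein of enterocytes and hepatocytes, fell nearer the threshold (-6.24 ± 1.63, adjusted p = 0.0460 by limma). Fabp1 had 3.46 and -2.41 in KO large intestine, against 7.14 and 6.39 in KO small intestine. Its high large intestine value was on the array that carried hepatocyte markers.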
